A study of Mus musculus with 18 samples.

Results

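The high polysome of wild-type (WT) mouse embryonic stem cells (ESCs) was compared with the low polysome of the same gradients. The members are 6 libraries of the 18 in the series, chosen by their titles: the low and the high polysome fraction of WT gradients 1, 2 and 3. All 6 came from unmodified ESCs, which the study's methods name as the V6.5 line, grown in fetal bovine serum with LIF and the 2i inhibitors PD0325901 and CHIR99021. Every culture had 100 µg/ml cycloheximide for 2 min before lysis, which stops ribosomes on the mRNA, and the lysate was spun through a 10 to 50% sucrose gradient. The labels give 2 to 4 ribosomes per transcript for the low polysome and 4 or more for the high polysome. The other 12 libraries hold the WT monosome and the 3 fractions of Ddx6 knockout (KO) ESCs. Whether the 3 WT gradients came from separate cultures is not given in the sources used here, so p-values measure the spread between these gradients only.

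A messenger RNA is read by several ribosomes at once, and the number it carries depends on how often ribosomes start, how fast they move and how long the coding sequence is. A sucrose gradient sorts transcripts by that number, because each ribosome adds mass. A short coding sequence has room for few ribosomes, and a transcript on which starts are rare carries few at any length. Upstream AUGs, start codons in the 5′ untranslated region (5′ UTR) ahead of the main coding sequence, can take up scanning ribosomes. Terminal oligopyrimidine (TOP) mRNAs, which encode ribosomal proteins and some translation factors, begin with a C and a run of pyrimidines, and their translation follows growth signals.

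Reads came from 3′ end libraries, in which 1 read marks 1 transcript end, so normalised counts (CPM, the count scaled to library size) were not divided by length. The 6 libraries held 7043953 to 10289531 gene counts. Genes with at least 3 CPM in at least 3 of the 18 libraries numbered 12705 of 51467 and held 99.7% of the counts of the 6 libraries. All 8 ESC markers passed this filter, with a summed level of 2535 to 3740 CPM in the low and 4246 to 5533 CPM in the high polysome. The 8 primitive endoderm markers summed to 7.36 to 11.9 CPM and 1 passed, and the 8 fibroblast markers summed to 10.7 to 19.2 CPM, with Col3a1, Postn and Prrx1 at 0 in all 6 libraries. The 8 trophoblast markers summed to 24.7 to 37.1 CPM with Tpbpa at 0, and 4 passed. The primed epiblast markers, with Fgf5 at 0, summed to 136 to 250 CPM.

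The low polysome library of gradient 3 stood apart from its 2 replicates. Of 8806 genes with a mean of at least 10 CPM and values within 1 log2 unit of each other in gradients 1 and 2, 337 were more than 1 log2 unit below the mean of those gradients in that library, against 0 to 12 genes by the same count in each of the other 5 libraries. These 337 genes had a median coding length of 825 nt, against 1317 nt over all genes of that level. Pfn1, an actin-binding protein, was at 315, 250 and 37.9 CPM in the low polysome of gradients 1, 2 and 3, and Usmg5, a small subunit of the mitochondrial ATP synthase, was at 571, 633 and 30.9 CPM. Both were chosen after their values were seen. Neither is read as a result. For the genes described below, the value without gradient 3 is given wherever leaving that gradient out ended a call or changed the fold (2 to the power of the log2 difference) by over 1.5 times.

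**Figure D1:**
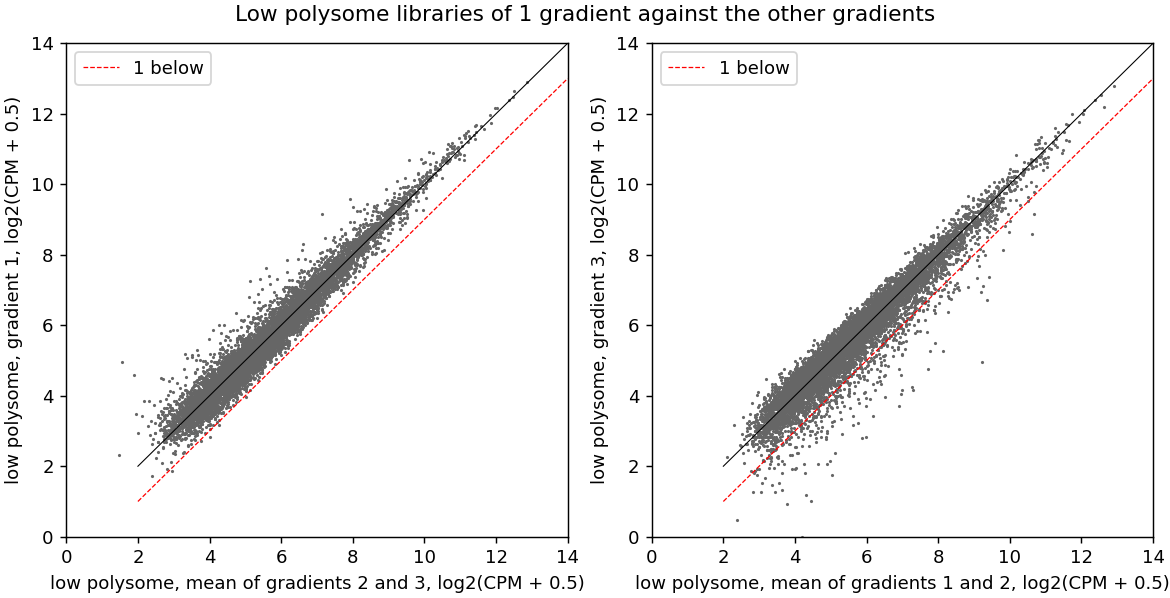
Each point is a gene with a mean of at least 10 CPM. The y axis is its level in the low polysome library of gradient 1 (left) or gradient 3 (right) and the x axis the mean of the other gradients, both as log2(CPM + 0.5). Of the genes whose other gradients were within 1 log2 unit of each other, 337 lie under the dashed line in the right panel and 5 in the left.

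The fractions differed at most genes. At a Benjamini-Hochberg adjusted p under 0.05 (limma, gradient as a block), 4136 genes were higher in the high polysome and 4238 were lower, which is 32.6% and 33.4% of the genes tested, and 65.9% in all. With an added limit of 1 on the log2 scale, 1612 genes (12.7%) were higher and 2280 (17.9%) lower. Of the 8374 genes called, 8309 had the same sign in all 3 gradients. Without gradient 3, 94.7% of the calls remained in the same direction. Each value states a gene's level against that of the rest of its library, since total RNA per fraction was not measured.

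Protein-coding and non-coding genes separated. Of 447 genes in the long non-coding RNA (lncRNA) classes, 363 were lower in the high polysome and 5 were higher, with a median log2 difference of -1.63, while 11773 protein-coding genes had a median of 0.06. Malat1, a nuclear-enriched lncRNA, was at 621, 931 and 1067 CPM in the low polysome and 118, 185 and 195 CPM in the high polysome of gradients 1 to 3. Meg3, an imprinted lncRNA, had 661, 641 and 879 CPM in the low and 99.9, 97.2 and 119 CPM in the high polysome. Neither gene's low polysome values overlapped its high polysome values, as was the case for 64.2% of all genes tested. The log2 differences were -2.39 ± 0.09 (SE) for Malat1 and -2.78 ± 0.10 for Meg3, both with limma adjusted p = 1.5e-06. The non-coding hosts of small nucleolar RNAs, whose introns give rise to those RNAs, were among the lowest groups: 12 of 14 tested were lower, none was higher, and the median was -2.03. Gas5, the most counted, fell from 471, 489 and 453 CPM in the low to 116, 114 and 128 CPM in the high polysome, a log2 difference of -1.98 ± 0.10 (adjusted p = 1.8e-06).

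The 5 genes of the lncRNA classes that were higher in the high polysome were Cct6a, Ifi30, A330069E16Rik, Gm13205 and Gm1070, named after their values were seen. Cct6a is typed as a processed transcript in the annotation used here and is a subunit gene of the chaperonin CCT, and it had the largest difference of the 5, 1.87. Ifi30, typed the same way, is known as a lysosomal thiol reductase and had 0.72. The remaining 3 had means of 2.30 to 5.36 CPM. Genes whose type is unclear also lay at the other end. Snhg11 and Platr17, which carry lncRNA names, are listed as protein-coding with coding lengths of 264 and 246 nt, and were lower by -2.87 and -2.77.

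The mRNAs encoded in the mitochondrial genome, which are read by mitochondrial ribosomes inside the organelle, were also lower: 7 of 7 tested, with a median of -1.81. The transcript mt-Co1, which encodes a cytochrome c oxidase subunit, had 567, 789 and 665 CPM in the low and 179, 336 and 298 CPM in the high polysome. As a share of all gene counts, these 7 mRNAs made up 0.280% ± 0.060 (SD, n = 3) of the low and 0.090% ± 0.028 of the high polysome.

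Classes of coding length differed widely. In 249 genes with a coding sequence of up to 300 nt, the median log2 difference was -1.76, and 92.4% were lower in the high polysome against 1.20% higher. From 300 to 600 nt the median was -0.71 (n = 1334), from 600 to 900 nt 0.12 (n = 1694) and from 900 to 1200 nt 0.33 (n = 1789). The highest median, 0.36, was at 1200 to 1500 nt (n = 1519). Beyond that the medians declined again, through 0.31 at 1500 to 2000 nt, 0.18 at 2000 to 3000 nt and -0.12 at 3000 to 5000 nt, to -0.53 in 486 genes over 5000 nt, of which 59.7% were lower and 7.82% higher. So the genes with the longest coding sequences, like the shortest, were on balance less abundant in the high than in the low polysome.

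The order of the classes was alike in the gradients, with the widest spread for the shortest genes. Up to 300 nt the class median of the single-gradient ratio, log2((high CPM + 0.5)/(low CPM + 0.5)), was -1.84, -1.81 and -1.48 in gradients 1, 2 and 3. At 1200 to 1500 nt it was 0.38, 0.37 and 0.36, and over 5000 nt -0.49, -0.49 and -0.56. From 300 to 600 nt it was -0.74, -0.71 and -0.54, so under the class over 5000 nt in gradients 1 and 2 only. Across genes up to 1500 nt Spearman's rho of coding length with that ratio was 0.365 ± 0.042 (SD over 3 gradients, 6585 genes), and across longer genes it was -0.287 ± 0.003 (5184 genes), where genes are not independent replicates and share the libraries. Over all 11769 coding genes the 2 arms left a rho of 0.091 ± 0.034.

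**Figure D2:**
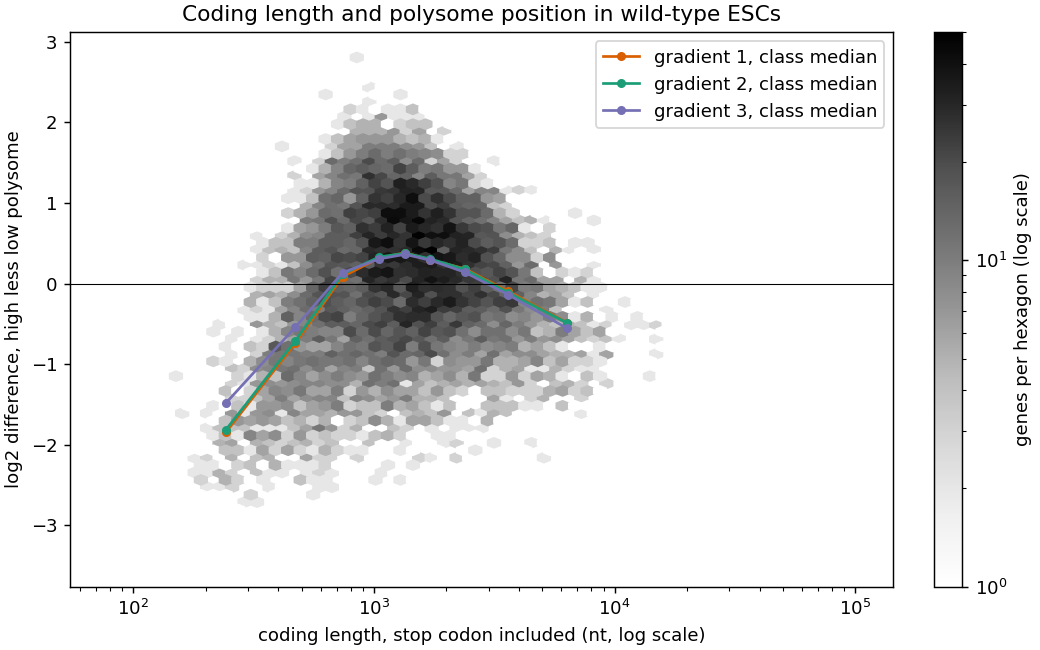
Hexagons count the 11769 coding genes tested by coding length (x axis, nt, log scale) and log2 difference of high less low polysome (y axis), and the lines join the class medians of each gradient. Medians run from -1.84 to -1.48 at up to 300 nt, through 0.36 to 0.38 at 1200 to 1500 nt, to -0.56 to -0.49 over 5000 nt.

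As a share of the transcripts counted, genes with coding sequences of up to 600 nt contributed 34.7%, 33.5% and 30.4% of the gene counts of the low polysome in gradients 1 to 3, and 18.6%, 18.3% and 17.9% of the high polysome. The groups did not overlap (exact permutation test, two-sided, p = 0.1, the smallest that 3 against 3 allows). This test and those of the other shares were unpaired and did not use the pairing by gradient. Genes of 600 to 3000 nt went the other way, from 56.9% ± 1.22 (SD, n = 3) to 73.2% ± 0.293, with the same exact p. Genes over 3000 nt held 7.08%, 7.73% and 8.995% of the low and 6.72%, 7.08% and 7.86% of the high polysome, lower in the high fraction of each of the 3 gradients although the groups overlapped (unpaired exact permutation p = 0.5). Of 9 such shares compared, 8 had that smallest p, and their Benjamini-Hochberg adjusted exact p was 0.112.

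The coding genes with the most negative differences were nearly all of the shortest class. Under a limit of 10 CPM on the mean, the lowest 10 were Elof1, Ndufaf8, Oaz1, Snhg11, Rpl41, Tmem242, Tmsb10, Platr17, Atox1 and Ndufa2, with log2 differences of -2.99 to -2.74 and adjusted p of 1.9e-06 or less. Of these, 8 had a coding length of at most 300 nt. Rpl41, the smallest protein of the large ribosomal subunit (78 nt of coding sequence, chr10:128548114-128549305, minus strand, GRCm38), was at 825, 817 and 772 CPM in the low and at 96.4, 103 and 139 CPM in the high polysome. Elof1, a transcription elongation factor (252 nt, chr9:22112989-22117172, minus strand), went from 284, 255 and 265 CPM to 35.0, 28.2 and 38.3 CPM. Their log2 differences were -2.85 ± 0.13 and -2.99 ± 0.11. Tmsb10, an actin monomer-binding thymosin, Atox1, a copper chaperone, and Ndufa2, a complex I subunit, showed the same separation, with every low polysome value above every high polysome value. All were chosen for the size of their difference, which largely fixes this separation. The fractions did not overlap, in either direction, for 64.2% of all genes tested.

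The 2 longer genes of the 10 were Tmem242, a transmembrane protein, at 423 nt and Oaz1, ornithine decarboxylase antizyme, at 684 nt. The Oaz1 mRNA needs a programmed frameshift to make the full protein, and it was at 118, 82.5 and 96.7 CPM in the low and 13.98, 9.28 and 15.8 CPM in the high polysome. Compared with genes of like coding length (the running median of 301 genes), Oaz1 was lower by -2.97 and Tmem242 by -1.96, against -0.998 for Rpl41 and -1.27 for Elof1.

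The 10 coding genes with the most positive differences were Slc25a5, Nr0b1, Rraga, Khdc3, Gtf2b, Hmgb2, Acat1, Eno1, Sec13 and Gstp1, from 2.30 to 2.80 (adjusted p of 0.0011 or less). All had coding lengths between 633 and 1419 nt, and 8 of the 10 had no AUG in the annotated 5′ UTR, as had 4 of the 10 lowest and 50.2% of all coding genes tested. In 7 of them the low polysome library of gradient 3 was more than 1 log2 unit under its replicates. Without gradient 3 the 10 differences ranged from 1.69 to 2.58 and all stayed past the threshold. Eno1, the glycolytic enzyme enolase, and Gstp1, a glutathione transferase, changed in fold by over 1.5 times, their log2 differences going from 2.36 to 1.76 and from 2.30 to 1.69. Genes such as Slc25a5, Eno1 and Gstp1 have near-identical copies elsewhere in the genome, and unique alignment makes their counts uncertain.

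Rraga and Hmgb2 did not rest on that library. Rraga, a Rag GTPase that carries the amino acid signal to mTORC1 (chr4:86575668-86577285, plus strand), was at 99.6, 133 and 89.9 CPM in the low and 645, 735 and 525 CPM in the high polysome, a log2 difference of 2.57 ± 0.10, and 2.58 without gradient 3. Hmgb2, a chromatin-bound HMG box protein, was at 64.7, 76.4 and 47.0 CPM in the low and 309, 375 and 293 CPM in the high polysome (2.39 ± 0.11). Nr0b1 (Dax1), an orphan nuclear receptor of the ESC network, was at 12.2, 10.1 and 3.65 CPM in the low and 53.2, 57.0 and 49.9 CPM in the high polysome, so its lowest value came from gradient 3. Khdc3, a maternal-effect gene also expressed in ESCs, rose from 26.3, 25.9 and 13.1 to 131, 108 and 114 CPM.

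Single genes lay far from the median of their length. Among coding sequences of at least 1500 nt, the lowest were Mapk8ip3, Map3k10, Ttll6, Rnpepl1 and Cep152. Mapk8ip3, the JNK scaffold and motor adaptor JIP3 (4014 nt), had 52.9, 52.1 and 68.4 CPM in the low and 8.67, 6.96 and 10.997 CPM in the high polysome. Its difference was -2.70 ± 0.14 (adjusted p = 1.9e-06). Map3k10, a mixed-lineage kinase, had -2.66 ± 0.22, Ttll6, a tubulin polyglutamylase, -2.35 ± 0.13, and Cep152, a centriole duplication scaffold of 5211 nt, -2.19 ± 0.14. Overlap of these loci with other genes on the same strand was not examined.

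Among coding sequences of at most 600 nt, the highest were Srsf3, Rpl27, Rida, Cnbp and Rps27a. Srsf3, a splicing factor of the SR family (495 nt), had 204, 246 and 198 CPM in the low and 659, 871 and 648 CPM in the high polysome (1.74 ± 0.10, adjusted p = 1.9e-06). Cnbp, a zinc finger nucleic acid-binding protein (537 nt), had 201, 206 and 167 CPM and then 593, 654 and 534 CPM (1.63 ± 0.10). Without gradient 3 they were 1.76 and 1.61, whereas Rpl27 and Rida dropped from 1.66 and 1.65 to 1.26 and 1.19. Rpl27 and Rps27a encode ribosomal proteins with many processed copies and were counted at under 50 CPM, so these values are uncertain. At up to 300 nt the 3 genes higher in the high polysome were Atxn7l3b, Cdc42se2 and Selenok, with differences of 0.67, 0.71 and 0.51 (0.51, 0.56 and 0.24 without gradient 3), named after their values were seen.

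**Figure D3:**
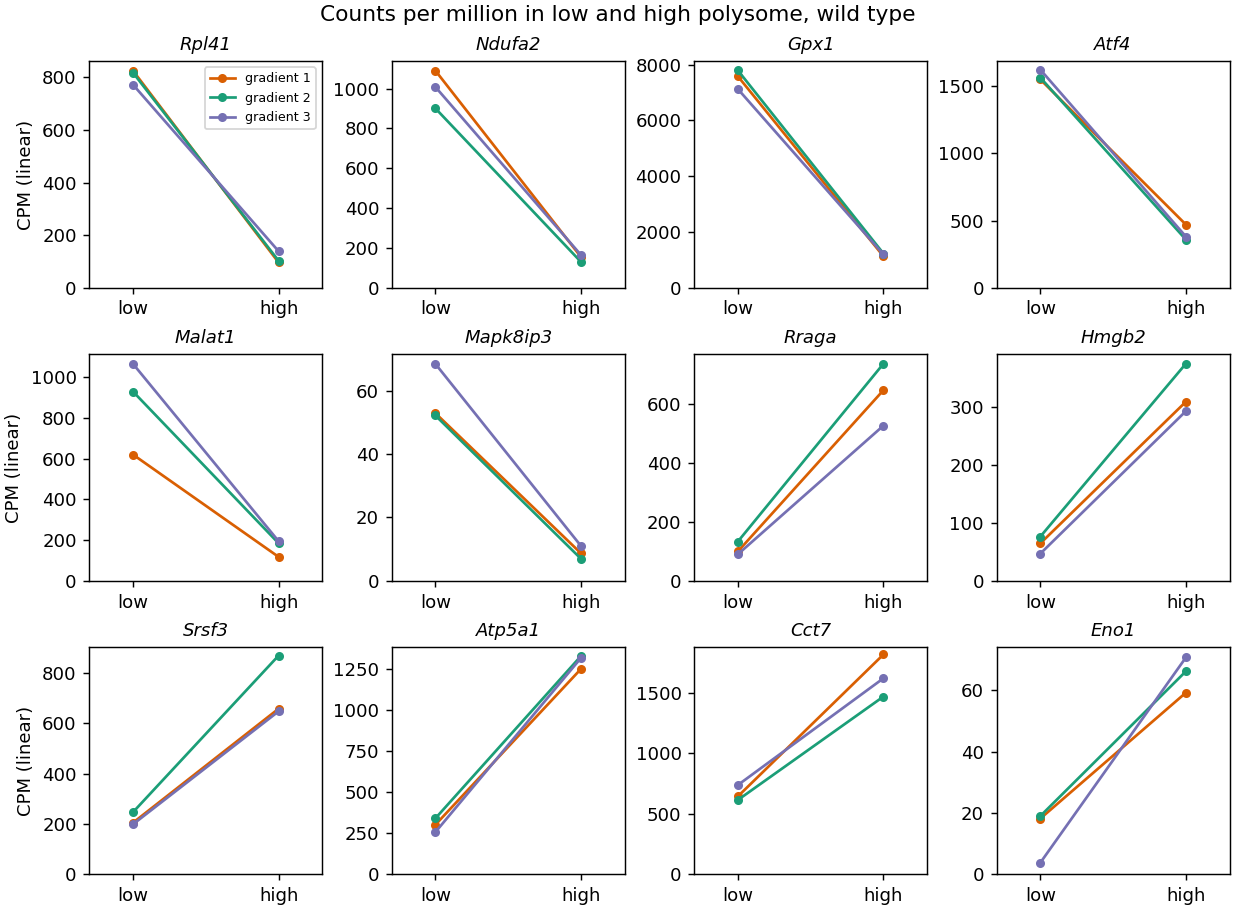
Normalised CPM (linear axis from 0) of 12 genes in the low and high polysome, with 1 line per WT gradient. Rpl41, Ndufa2, Gpx1, Atf4, Malat1 and Mapk8ip3 fall in all 3 gradients, the other 6 genes rise in all 3, and the low polysome value of Eno1 in gradient 3 is 3.65 CPM against 18.1 and 18.9 CPM.

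The groups of genes below are set against the 32.6% of all genes that were higher and the 33.4% that were lower in the high polysome. The group with the highest median was glycolysis, in which 11 of 15 genes were higher and 1 was lower (median 1.49, and 1.38 without gradient 3). Its members had means of 2.18 to 726 CPM, and 1 of them stood low in the gradient 3 low polysome library. Aldoa, the aldolase of the pathway, was at 454, 348 and 405 CPM in the low and 1207, 884 and 1060 CPM in the high polysome, a difference of 1.38 ± 0.09. Pkm, pyruvate kinase, was higher by 0.90 ± 0.09. The exception was Pfkp, the platelet-type phosphofructokinase, which had 148, 185 and 239 CPM in the low and 77.5, 72.3 and 84.1 CPM in the high polysome (-1.27 ± 0.13, adjusted p = 3.0e-05).

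Proteasome and CCT genes were mostly higher as well. Of 37 proteasome genes, which encode the protease that degrades ubiquitin-tagged proteins, 32 were higher and 2 lower (median 1.23), and together they rose from 0.781% ± 0.049 to 1.56% ± 0.050 of gene counts. Psma2, a subunit of the outer ring, was at 583, 630 and 618 CPM in the low and 1455, 1541 and 1272 CPM in the high polysome (1.22 ± 0.10). The 2 lower members were Psma7, at -0.28, and Psmb10, a subunit of the immunoproteasome with 8 AUGs in its annotated 5′ UTR, at -1.61 ± 0.19. All 8 subunit genes of the chaperonin CCT, which folds actin and tubulin, were higher (0.85 to 1.87). Cct7 was at 643, 614 and 738 CPM in the low and 1822, 1472 and 1624 CPM in the high polysome.

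Genes for the translation machinery other than ribosomal proteins followed. Of the aminoacyl-tRNA synthetases, which charge tRNAs, 17 of 20 were higher and 1 was lower (median 0.98). The lower one was Lars, the leucine enzyme and with 3537 nt a long member, at -0.41 ± 0.10 (-0.32 relative to genes of like length). Of 32 initiation factor genes, 22 were higher and 6 lower (median 0.86). Eif3g, a subunit of eIF3, was at 256, 217 and 248 CPM in the low and 714, 797 and 799 CPM in the high polysome. Eif1, which guards start codon choice and has 342 nt of coding sequence, was lower at -0.78 ± 0.10, and Eif4g1, the scaffold of the cap-binding complex, at -0.33 ± 0.10. Eif5a, the most counted member, had 0.13 ± 0.10 and overlapping values (adjusted p = 0.26).

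Chaperone genes were mostly higher: 11 of 17 in the ER list with 2 lower (median 0.85), and 11 of 16 in the cytosolic and mitochondrial list with 2 lower (median 0.83). Calr, the ER calcium-binding chaperone calreticulin, was at 1094, 924 and 1281 CPM in the low and 3039, 2450 and 2987 CPM in the high polysome. Manf, a small ER stress protein of 540 nt, went from 1157, 856 and 575 CPM to 328, 311 and 313 CPM (-1.39 ± 0.16, and -1.64 without gradient 3). Manf was also low relative to genes of like length, at -1.03. Hsp90ab1, the most counted of the cytosolic list, was at 2704, 2499 and 2862 CPM in the low and 3216, 2285 and 2983 CPM in the high polysome, with a difference of 0.06 ± 0.11 (adjusted p = 0.63). Hspe1, the partner of the mitochondrial chaperonin with 309 nt, was lower by -1.07 ± 0.13, close to other genes of its length (0.39 above their median). Cholesterol synthesis genes were higher in 16 of 20 cases and lower in 2 (median 0.71), with Msmo1 at 1.16 and Mvk, mevalonate kinase, at -0.68.

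The nuclear genes of the respiratory chain spanned a wide range. Of 78 tested, 44 were lower and 19 higher, with a median of -0.73 and a median coding length of 420 nt, and their joint share fell from 5.15% ± 0.377 of low polysome counts to 2.77% ± 0.054 of high polysome counts. Cox6c, a small subunit of cytochrome c oxidase with 231 nt, was at 3961, 3787 and 3468 CPM in the low and 751, 678 and 749 CPM in the high polysome (-2.36 ± 0.10). The ATP synthase subunit genes Atp5a1 and Atp5b, with longer coding sequences, lay at the opposite end. Atp5a1 (1662 nt) went from 300.01, 339 and 255 CPM to 1251, 1329 and 1318 CPM (2.13 ± 0.11), and Atp5b (1590 nt) was higher by 1.80 ± 0.09. Atp5a1 was still at 1.87 and Atp5b at 1.45 relative to genes of like length, and Cox6c was at -0.59. After the median of genes of like length was taken off, the list's median was 0.11. Its single-gradient medians were -0.97, -0.89 and -0.46, with gradient 3 again nearest to 0.

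Several groups of short proteins were low in the same way. Of 21 genes for Sm and LSm proteins and snRNPs, which build the spliceosome, 13 were lower and 6 higher (median -1.07, and 0.08 relative to genes of like length). Of 15 genes for ubiquitin and ubiquitin-like modifiers, 11 were lower and 2 higher. Nedd8, the modifier of cullins, was at 2103, 1784 and 1678 CPM in the low and 689, 507 and 573 CPM in the high polysome (-1.66 ± 0.10), and Sumo3 was at -1.97 ± 0.11. The 2 higher members were Ubb, which encodes ubiquitin in several copies in one frame (918 nt), at 2.03 ± 0.19 (1.72 without gradient 3), and Gabarapl1, a small autophagy protein, at 0.44 ± 0.11. Cks1b, a small partner of the cyclin-dependent kinases with 240 nt, was at 1592, 1331 and 798 CPM in the low and 300.3, 237 and 246 CPM in the high polysome, while its partner Cdk1 was at 448, 435 and 312 CPM and then at 1347, 1495 and 1308 CPM. In the cell cycle list as a whole 19 of 31 were higher and 4 lower.

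Long chromatin and cytoskeleton genes made up the other arm. In a list of chromatin regulators with long coding sequences (median 6039 nt), 31 of 46 were lower and 5 higher, with a median of -0.51 and -0.06 relative to genes of like length. Ncor1, a nuclear co-repressor scaffold, was at 204, 265 and 375 CPM in the low and 122, 157 and 174 CPM in the high polysome (-0.87 ± 0.11). Smarca5 and Smarcc1, ATP-dependent remodelling subunits just over 3000 nt long, were higher by 0.54 and 0.50. Of 25 large cytoskeletal genes 15 were lower and 4 higher. Iqgap1, an actin scaffold, was lower by -0.79 ± 0.10, whereas Macf1, whose 22068 nt make it one of the longest coding sequences, was higher by 0.32 ± 0.10 with overlapping values.

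Other lists were low also relative to genes of like length. Of 242 Zfp genes, which encode zinc finger proteins, 80 were lower (33.1%) and 33 higher (13.6%), with a median of -0.25 and -0.47 relative to genes of like length. The share of lower genes was near that of all genes, and the share of higher genes was under it. Of 18 selenoprotein genes, whose mRNAs decode a UGA codon as selenocysteine, 10 were lower and 5 higher. Gpx1, glutathione peroxidase (606 nt, chr9:108338903-108340343, plus strand), was at 7580, 7791 and 7123 CPM in the low and 1130, 1228 and 1196 CPM in the high polysome, a difference of -2.66 ± 0.10, or -2.58 relative to genes of like length. Txnrd1, thioredoxin reductase, whose selenocysteine is next to the C-terminal residue, was at 158, 178 and 237 CPM and then 490, 507 and 496 CPM (1.40 ± 0.12). The single-gradient medians of this list were -0.66, -0.99 and -0.04.

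The upstream open reading frame list holds 10 genes known for such frames, and 7 were lower and 2 higher (median -1.05, and -1.37 relative to genes of like length). Atf4, the transcription factor of the integrated stress response, was at 1550, 1564 and 1623 CPM in the low and 470, 359 and 381 CPM in the high polysome (-1.98 ± 0.11, adjusted p = 2.1e-06, chr15:80255184-80257541, plus strand). Ifrd1 was lower by -0.53 ± 0.10. The 2 higher members were Mief1, a mitochondrial dynamics protein, at 0.64 ± 0.12, and Ppp1r15b, a phosphatase subunit that acts on eIF2α, at 0.28 ± 0.11 (adjusted p = 0.047). Ppp1r15b was no longer called without gradient 3 (0.16).

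Across all coding genes the number of AUGs in the annotated 5′ UTR went with a modest shift. The median log2 difference was 0.17 in 5911 genes with none, 0.01 with 1, -0.04 with 2, -0.03 with 3 to 4 and -0.11 with 5 or more. With none, 39.9% of genes were higher and 28.4% lower. With 5 or more, 21.7% were higher and 33.0% lower. Genes with at least 1 upstream AUG had a median lower by -0.21, -0.18 and -0.19 in gradients 1 to 3. The shift differed with coding length: -0.37 ± 0.036 (mean and SD over 3 gradients) at 600 to 1200 nt and -0.29 ± 0.026 at 1200 to 2000 nt, but -0.09 ± 0.022 at up to 600 nt and 0.02 ± 0.021 over 3000 nt. Genes with many AUGs also have longer annotated 5′ UTRs, and the annotated start may not be the one used in ESCs. No test was made, since genes are not replicates.

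**Figure D4:**
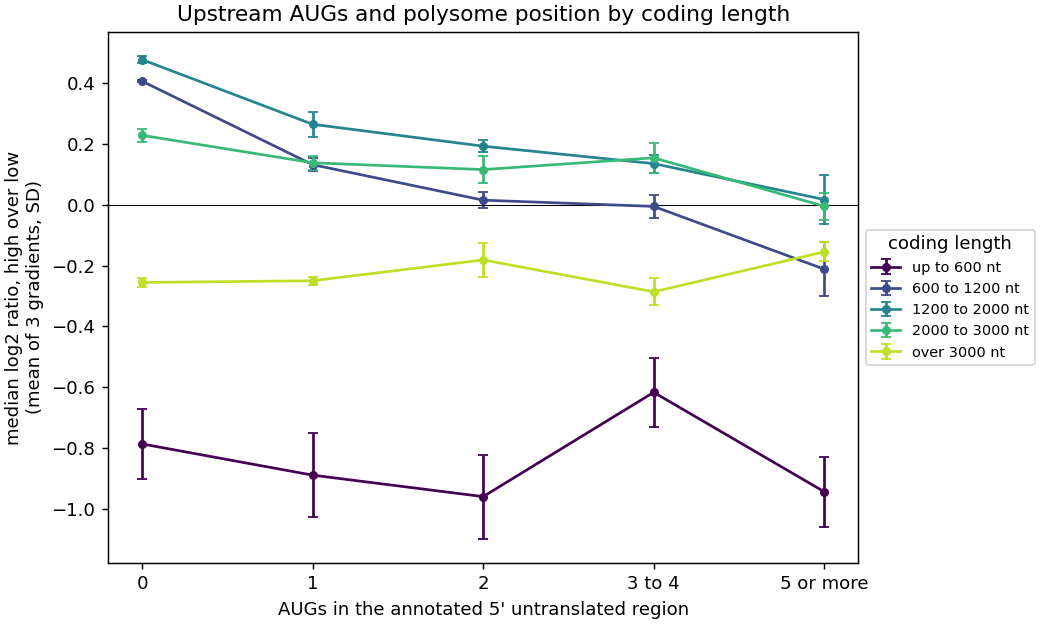
The y axis is the class median of log2((high CPM + 0.5)/(low CPM + 0.5)), as the mean and SD over 3 gradients, and the x axis the number of AUGs in the annotated 5′ UTR, with 1 line per coding length class. At 600 to 1200 nt the median goes from 0.41 with none to -0.21 with 5 or more, and over 3000 nt it stays between -0.29 and -0.15.

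Ribosomal protein genes were mixed. Of 77 tested, 30 were lower and 13 higher in the high polysome, and 34 were not called, with a median of -0.19 (0.25 relative to genes of like length). Their joint share was 4.26% ± 0.021 of low and 2.70% ± 0.071 of high polysome counts. Rps14, the most counted, was at 6401, 5637 and 5976 CPM in the low and 2122, 1658 and 1689 CPM in the high polysome (-1.73 ± 0.10), and Rpl22 was lower by -1.87 ± 0.10. Rps3 and Rpl8, with coding lengths of 732 and 774 nt, were higher by 0.32 and 0.53. Reads shared with processed copies were discarded by unique alignment, and 10 of the 77 genes stood low in the gradient 3 low polysome library, so this list is among the least certain.

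The first transcribed bases of 5 of these genes are given to show what a TOP start looks like beside each gene's polysome position. They run from 10 bases before the RefSeq start to 20 bases after it, 5′ to 3′ on GRCm38.p6, with the unbroken pyrimidine run from the start in capitals. They are the 4 most counted ribosomal protein genes with a TOP start in RefSeq, and the one with the highest difference at a mean of at least 10 CPM.
Rps21 (chr2:180257369-180257398, plus strand): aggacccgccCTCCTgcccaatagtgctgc
Rps10 (chr17:27635225-27635254, minus strand): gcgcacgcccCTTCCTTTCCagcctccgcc
Rpl14 (chr9:120571507-120571536, plus strand): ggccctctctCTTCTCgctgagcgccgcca
Rps18 (chr17:33955646-33955675, minus strand): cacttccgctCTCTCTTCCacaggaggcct
Rpl15 (chr14:18270967-18270996, minus strand): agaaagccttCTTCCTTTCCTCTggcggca
The log2 differences of high less low polysome were -2.01 for Rps21, -0.09 for Rps10, -0.04 for Rpl14 and -0.0036 for Rps18, chosen by count, and 2.03 for Rpl15, which was chosen for its difference. Rps21 also had the lowest difference of the ribosomal protein genes with a TOP start and a mean of at least 10 CPM.

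A start of C followed by at least 4 pyrimidines, read on the transcribed strand only, was found at the exact RefSeq start of 13 of 56 ribosomal protein genes with a RefSeq window (23.2%), and of 288 of 9320 protein-coding genes (3.09%). The share over all 32851 RefSeq windows was 2.51%. The 288 genes had a median difference of 0.01 and the other coding genes 0.06. The gap was 0.01, -0.04 and -0.13 in gradients 1, 2 and 3, so it was within the spread between gradients. The RefSeq start may not be the one used in ESCs. Most ribosomal protein genes lacked the motif there, as did all but 3 of 11 TOP genes outside the ribosome with a window. The other coding genes thus include known TOP mRNAs, and the gap does not measure TOP mRNAs as a class. Among the 17 TOP genes outside the ribosome, 10 were higher and 2 lower (median 0.50, and 0.18 relative to genes of like length). Rack1, a ribosome-bound scaffold, was at 1977, 1876 and 2087 CPM in the low and 2702, 2275 and 2613 CPM in the high polysome (0.35 ± 0.10). Eef1b2, an elongation factor subunit, was higher by 0.52 ± 0.09. Relative to genes of like length, Rack1 was at -0.14 and Eef1b2 at 0.47. The 2 lower members were Pabpc1, the cytoplasmic poly(A)-binding protein (1911 nt), at -1.21 ± 0.14, and Eef2, elongation factor 2 (2577 nt). Eef2 went from 1194, 991 and 1338 CPM to 583, 399 and 575 CPM (-1.19 ± 0.10). Relative to genes of like length, Pabpc1 was at -1.52 and Eef2 at -1.30.

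Genes of the ESC state were mostly higher. Of 24 pluripotency genes, 15 were higher and 5 lower in the high polysome (median 0.69, and 0.47 without gradient 3, where 16 were higher and 4 lower). Tdgf1, a co-receptor for Nodal, was higher by 0.30 ± 0.10, and Fgf4, the growth factor that ESCs secrete, was at 1504, 1382 and 1377 CPM in the low and 763, 783 and 781 CPM in the high polysome (-0.87 ± 0.10). Dppa5a was at 1658, 1472 and 387 CPM and then 1636, 2379 and 2062 CPM. Its difference of 1.03 ± 0.36 became 0.34 without gradient 3. Klf4 was lower by -0.45 ± 0.13, and Pou5f1, counted at 35.7 to 56.9 CPM and with near-identical copies in the genome, by -0.31 ± 0.11, with no call left for Pou5f1 without gradient 3 (-0.24).

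Ddx6 itself, an RNA helicase of P-bodies and the gene knocked out in the other cells of the series, was at 158, 193 and 211 CPM in the low and 188, 203 and 188 CPM in the high polysome (0.05 ± 0.11, adjusted p = 0.70). Over all genes, 5.42% had a high less low difference that differed between KO and WT (limma interaction term, adjusted p under 0.05). The 29 genes for P-body, decapping and CCR4-NOT proteins had 9 higher and 10 lower, close to the shares over all genes. Lsm14a, a P-body scaffold, was higher by 0.75 ± 0.10, and Dcp2, the decapping enzyme, was lower by -0.44 ± 0.10.

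Further lists can be given by their counts. Of 12 SR splicing factors 8 were higher and 3 lower (median 0.74), with Srsf2 at 1.69 and Srsf9 at -0.97. Of 213 solute carriers 82 were higher and 44 lower (median 0.20, and -0.09 relative to genes of like length). Among them Slc25a39, a mitochondrial glutathione carrier, was at 1073, 962 and 978 CPM in the low and 216, 187 and 195 CPM in the high polysome (-2.33 ± 0.09). Of 46 RAB GTPases 19 were higher and 11 lower, and of 30 ubiquitin-conjugating enzymes 7 were higher and 12 lower. Mitochondrial ribosomal proteins had 34 of 77 higher and 28 lower. Of 19 histone variants and HMG proteins 8 were higher and 7 lower, and the list's median of 0.45 was -0.11 without gradient 3. H2afv, a histone H2A variant, was at 2658, 2410 and 2127 CPM in the low and 630, 539 and 519 CPM in the high polysome. In the short cytoskeletal list 9 of 23 were higher and 9 lower, with Actb, cytoplasmic actin, at 1828, 1634 and 2237 CPM and then 7683, 5277 and 6382 CPM (1.76 ± 0.12), and Dynll1, a dynein light chain of 270 nt, at -1.65 ± 0.13. Basement membrane genes had 6 of 12 higher and 3 lower, and 3 of the 6 iron response genes were higher with none lower.

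**Figure D5:**
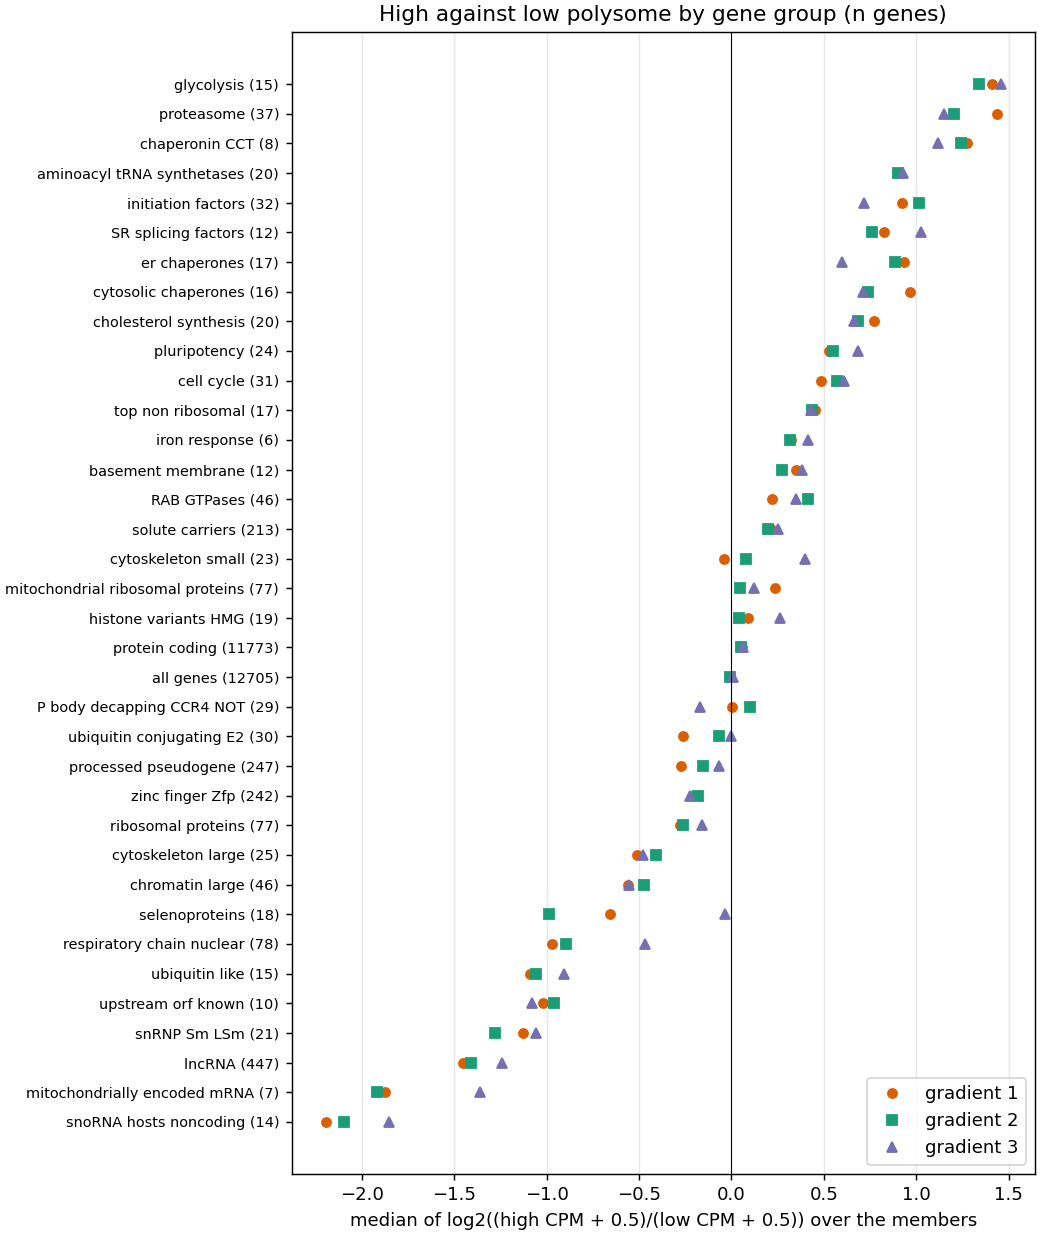
Each row is a gene group with its number of genes tested, and each point the group's median of log2((high CPM + 0.5)/(low CPM + 0.5)) in 1 of the 3 WT gradients. Glycolysis, proteasome and CCT genes lie at 1.12 to 1.46, lncRNAs at -1.45 to -1.24, and in the respiratory chain and selenoprotein rows gradient 3 is nearest to 0.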

How the data were processed

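The authors deposited read counts per gene from QuantSeq 3′ FWD libraries of WT and Ddx6 KO ESC fractions. Their processing notes name cutadapt 1.14, STAR 2.5.3a and featureCounts 1.5.3 on mm10. Per the file headers the counting was stranded, on Gencode M14 basic without rRNA and with spike-ins, from unique alignments, which undercounts genes with near-identical copies. No molecular identifiers are named. Spike-ins were left out here.

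Genes with at least 3 CPM in at least 3 of 18 libraries were scaled by TMM, a method of edgeR 4.0.16. The limma 3.58.1 voom model, run in R 4.3.3, took the 6 WT low and high polysome libraries with gradient as a block, and its two-sided p-values were Benjamini-Hochberg adjusted. Both fractions of a number came from 1 gradient of 1 lysate, and the deviations of same-numbered libraries from their group means correlated at 0.318, 0.348 and 0.258. The steps were tested on simulated data in which few genes changed, evenly in both directions. In the data 65.9% of genes were called, so that simulation does not test the scaling in such a setting. Single-gradient ratios used a pseudocount of 0.5 CPM. Gene types, coding lengths (stop codon included) and 5′ UTRs came from 1 transcript per gene of Gencode M21 on GRCm38, and 193 identifiers did not match. TOP starts were read from RefSeq windows of 250 bases before to 50 after the start. SE is the standard error of the fit.

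Named genes were Ddx6, per list the most counted member and the 2 most counted called members in each direction, the 10 most positive and 10 most negative coding genes with a mean of at least 10 CPM and 1 sign in all gradients, the 5 lowest of at least 1500 nt, the 5 highest of at most 600 nt, and the 5 most counted lncRNAs. The comparison, its members and the gene lists were chosen with earlier results of these data known. Alternatives covered scaling, filters, edgeR and DESeq2 1.42.0 tests, the block, all 18 libraries and each gradient left out.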

Additional observations from a re-analysis of the deposited data

Results flagged for a closer look

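Of the 168 genes named by the rule, 23 had a high less low polysome difference that itself differed between Ddx6 KO and WT ESCs (limma interaction term over 12 libraries, adjusted p under 0.05). Over all genes 5.42% passed that test. Most named genes were chosen for high counts or a large WT difference, so the 23 cannot be read as an excess over that share. KO gradient 1 came from clone 1 and gradients 2 and 3 from clone 2. In the following, the log2 value is KO less WT. Among genes higher in the WT high polysome, the value was negative for Rraga (-0.90), Khdc3 (-1.40), Hmgb2 (-1.05), Srsf3 (-0.63), Srsf2 (-0.69), Cnbp (-0.79), Cdk1 (-0.81), Atp5b (-0.75), Psma2 (-0.73), Snrpd1 (-0.56) and Ppp1r15b (-0.74). In this fit Rraga was at 2.54 in WT and 1.64 in KO, and Khdc3 at 2.44 and 1.04. Among genes lower in the WT high polysome, the value was positive for Mapk8ip3 (1.11), Eef2 (1.48), Lars (0.81), Pfkp (1.62), Eif4g1 (1.33), Baz2a (0.69), Agrn (0.95), Hspg2 (0.74) and Psmb10 (1.04). Eef2 was at -1.22 in WT and 0.26 in KO, and Pfkp at -1.30 and 0.31. The value was also positive for Chd4 (0.91), Hsp90ab1 (1.05) and Dnmt3b (0.68), which were not called in WT. Part of this direction is fixed by the choice. Rraga, Khdc3, Hmgb2, Mapk8ip3, Srsf3 and Cnbp were named for the size of their WT difference, from which the KO less WT value is taken. The others were named by count within a list, most of them among the members called in WT. That call also rests on the WT difference.

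The 92 spike-in sequences, which no comparison used, had counts in every library. The highest total was 169, in the WT low polysome library of gradient 3, and the other 5 WT libraries compared here had 28 to 85. That is the library in which 337 genes were low against its replicates, and the part of the spike-ins or their source in that was not tested.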

How the results depend on the processing

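The counts of 4136 higher and 4238 lower genes ranged over 3137 to 4266 and 3264 to 4317 when 1 gradient was left out, and those past 1 on the log2 scale over 1572 to 1633 and 2107 to 2359. Without the replicate block they were 3671 and 3748, DESeq2 gave 3642 and 3688, edgeR 4149 and 4201, and no filter on low counts 4625 and 5004. No alternative scaling, filter, test or sample set moved these counts by over 1.5 times, and none reversed the direction of a named gene that was called. Of the named genes, 37 of 168 lost their call in at least 1 alternative, among them 12 without gradient 1, 35 without gradient 2 and 4 without gradient 3. Among those described, Macf1 (0.30) and Rps3 (0.25) lost it without gradient 1, Ppp1r15b (0.16) and Pou5f1 (-0.24) without gradient 3, and Rack1 (0.39), Lars (-0.36), Eif4g1 (-0.29), Smarcc1 (0.50), Macf1 (0.32), Dppa5a (1.22), Tdgf1 (0.30), Klf4 (-0.43), Ppp1r15b (0.31), Gabarapl1 (0.37), Selenok (0.60), Pou5f1 (-0.30), Rps3 (0.31) and Psma7 (-0.26) without gradient 2. With a pseudocount of 2 CPM the median at 1200 to 1500 nt was 0.31, over 5000 nt -0.46, rho over 1500 nt -0.293, and the upstream AUG shift -0.17 overall and -0.26 at 1200 to 2000 nt. With a mean of at least 10 CPM the median at 1200 to 1500 nt was 0.47, rho over 1500 nt -0.347, and the shifts -0.24 and -0.33. Scaling by library size alone gave 0.36 at 1200 to 1500 nt, and the longest coding transcript a rho over 1500 nt of -0.292. For these the cause was not tested. The gap at TOP starts reversed from -0.05 to 0.00102 when the C could lie within 5 bases of the start, and ranged from -0.09 to -0.02 with 1 gradient left out. The number of the 37 lists with a median above that of all genes was 22, and 21 to 26 under the alternatives. The 3 gradients limit the precision, with a median SE of 0.147 on the log2 scale.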
